A study of Mus musculus with 4 samples.

Results

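The transcription start sites described here lay just outside annotated genes. They were the alternative start sites (ASSs) to which the authors' annotation with Cuffcompare gave the class code p. Of the 42207 sites in the deposited table, 620 carried this code (1.469%), and they were assigned to 473 gene symbols. The code was the sole criterion and no read count was used to choose the sites.

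The study asked how loss of AMPKα2 changes the ends of transcripts in skeletal muscle. The gene Prkaa2 codes for AMPKα2, which is 1 of the alternative catalytic α subunits of AMP-activated protein kinase, an energy sensor. Total RNA of gastrocnemius muscle was taken for start site sequencing of the whole transcriptome (WTSS-seq) from 2 AMPKα2-/- mice (KO) and 2 wild-type mice (WT), with 1 library per animal. In this method rRNA-depleted RNA is primed with a semirandom primer, the 5′ end is tagged during reverse transcription, and the read begins at that end. All animals were adult males on the C57BL/6 background, and both WT animals served as controls of the KO model. The KO line carries its deletion in all tissues, not in muscle fibres alone. It removes the part of the gene that codes for a stretch of the catalytic domain, so transcripts of the rest of Prkaa2 can still be made.

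RNA polymerase II usually transcribes past the end of a gene before it is released, and the RNA made past the cleavage site is normally degraded quickly. Cuffcompare describes code p as a possible run-on fragment of this kind. A tag in such a region can also come from a longer 3′ end than the annotated one, from a neighbouring promoter, or from a fragment of a longer RNA, and a 5′ end read does not tell these apart.

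The libraries held 1300069 to 2900279 reads, and those of KO were the deeper. The 8 muscle markers were all detected, at a summed 32641 to 42344 ppm of library reads. Fibroblast markers were detected for 7 of 8 genes and summed to 1402 to 1710 ppm in KO and 1897 to 2166 in WT, with no site for Postn. Adipocyte markers (5 of 7, no site for Cidec and Retn) overlapped between groups at 1462 to 3320 ppm in all. Endothelial markers (3 of 5, no site for Egfl7 and Tie1) summed to 7.81 to 17.9 ppm in KO and 20.8 to 26.1 in WT. Blood markers (2 of 5, no site for Hba-a2, Hbb-bs and Hbb-bt) summed to 12.2 to 15.9 ppm in KO and 8.29 to 11.5 in WT. Sites were listed only above a minimum of reads, so a marker without a site was not measured at 0. The part of these other cell types in the results was not tested, and in bulk muscle fewer cells of a type and less RNA per cell cannot be told apart. Reads over all sites of Prkaa2 were 84.1 and 90.7 ppm in KO and 83.8 and 94.97 ppm in WT, so they did not separate the genotypes. Which of these sites lie in the deleted part was not determined here, and the genotype labels were not checked by this gene.

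For sites that fell into the promoter window of a neighbouring gene, 30 bases of reference sequence could be read, and they are shown because they place a site of one gene near the start of the next. The window runs from 250 bases before to 50 bases after an annotated start (RefSeq, GRCm38.p6). Of the 620 sites, 6 overlapped one of the 32851 windows, and 5 of these were on the strand of the neighbouring gene. Capitals mark the bases covered by the site, on the strand of the site and 5′ to 3′.
Ubtd1 site on chromosome 19, plus strand, bases 42035865 to 42035894: GGGCTGTCCGAGGTGAAGGTGACAGGTGGG
Klc2 site on chromosome 19, minus strand, bases 5107017 to 5107046: gcgccTGCGCGGCGCGGGCGGGGCCtctag
U2af1l4 site on chromosome 7, plus strand, bases 30565381 to 30565410: ccacccccacacctaAgaaagggtgtaagc
Tmem38a site on chromosome 8, plus strand, bases 72588226 to 72588255: tgttcTATAGGGGTGTGGTGAGGTATgggg
The Ubtd1 site lay 158 bases before the start of Ankrd2, a stretch-responsive ankyrin repeat protein of muscle, and held 51 and 95 reads in KO and 27 and 41 in WT. It was the most read of the 6. The Klc2 site, 27 bases before the start of the vesicle transport GTPase Rab1b, held 3 and 5 reads in KO and 1 and 5 in WT. The U2af1l4 site, 31 bases before the start of Igflr1, was read in KO replicate 1 alone, with 12 reads. The 2 sites of Tmem38a, a cation channel of the sarcoplasmic reticulum, lay 201 and 86 bases before the predicted gene Gm51538 and totalled 25 and 19 reads. The sixth site, of Khnyn, had 11 reads and was antisense to the start of Sdr39u1. None of these 6 sites was called between KO and WT, and 5 of them had too few reads to be tested.

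Sites of microRNA genes are shown with the mature sequences of the gene they were assigned to, with the seed (bases 2 to 8) in capitals, because the site lies outside the hairpin and does not measure these sequences.
miR-3098-5p: uCCUAACAgcaggaguaggagc
miR-3098-3p: uUCUGCUGccugccuuuagga
miR-742-3p: gAAAGCCAccaugcuggguaaa
The seeds of the 3 differed. The main Mir3098 site was 1979 bases past the end of the hairpin (chromosome 6, 125195792 to 125195878) and the Mir742 site was 1556 bases past its hairpin on chromosome X. The former lay inside the predicted gene Gm52878 on the same strand, and the latter inside Gm14681.

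The 620 sites were narrow and mostly weak. The width ran from 1 to 204 bases with a median of 11 (interquartile range 5 to 27.25), against 13 over all sites. Reads summed over the 4 libraries ran from 10, the minimum of the table, to 2013, with a median of 18 against 19 over all sites. Of the sites, 342 had fewer than 20 reads, 118 had at least 50 and 67 had at least 100. The 10 most read sites held 29.4% of all class p reads. The plus strand held 316 sites and the minus strand 304. Reads were present in all 4 libraries at 297 sites. Both WT libraries were at 0 at 76 sites and both KO libraries at 11. The KO libraries were deeper and the table has a minimum on the total, and the part of these in the difference was not tested. The same counts are not given here over all sites, so no trait of class p is read from them.

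None of the sites that could be placed lay before the start of its gene, and most lay past its end. The symbol was found on the same chromosome in the RefSeq gene table for 603 sites, while 14 had no entry and 3 were listed on another chromosome. Of the 603, 489 (81.1%) lay past the annotated gene end, 114 (18.9%) lay inside the gene interval of this table, and 0 lay before the gene start. A gene strand was known for 465 sites, and all 465 were on it. For its 3′ ends the paper defines code p as downstream of a reference transcript. The side thus follows from the code and the strand may, so they describe the class and are not a result of the experiment.

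Sites past the gene end lay a median of 815 bases from it (interquartile range 375 to 1342), with the nearest at 8 bases. Within the first 500 bases there were 159 sites, followed by 131, 103 and 92 in the next intervals of 500 bases. The median number of reads was 16, 19, 17 and 18 in these intervals, with no steady fall but close to the table's minimum of 10. The summed reads of the intervals were 9575, 7571, 5699 and 4719, over fewer sites at each step. Only 4 sites were over 2000 bases away, of which the 2 of Rbm14, an RNA-binding coactivator, lay inside the neighbouring annotation Gm21992 on the same strand. For its 3′ ends the paper limits code p to 2000 bases past a reference transcript. The range of these distances was therefore largely set by the code. The 114 sites inside the interval lay a median of 1049.5 bases before the gene end, and 106 of them were in the last 25% of the gene.

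**Figure D1:**
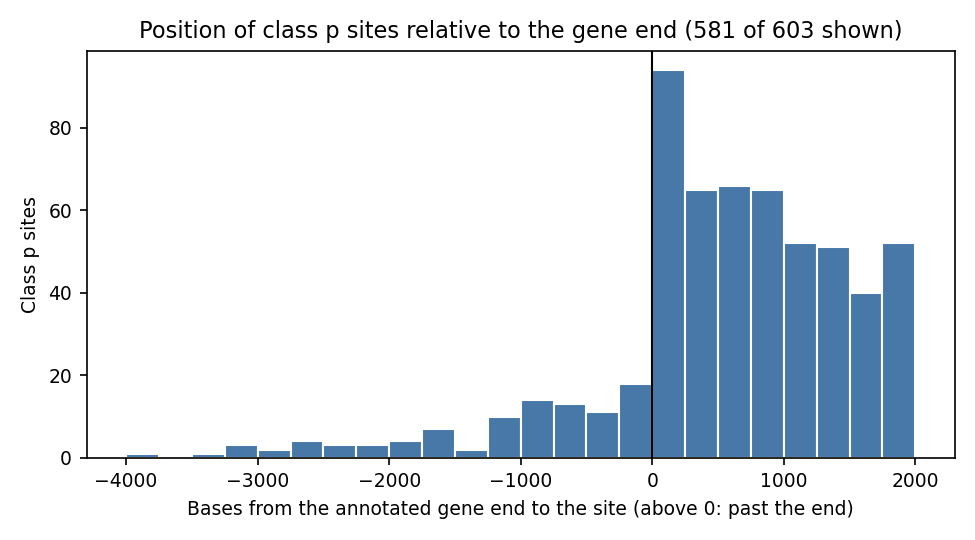
Number of class p sites (y axis) by the distance in bases from the annotated gene end (x axis, above 0 past the end), in intervals of 250 bases. Of 603 placed sites 581 are shown, and most lie between 0 and 2000 bases past the end, with a shorter tail inside the gene.

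By the gene's type, 529 sites belonged to protein-coding genes, 45 to long noncoding RNAs, 12 to pseudogenes, 7 to microRNA genes, 4 to small nucleolar RNAs and 4 to transfer RNAs. Another annotated gene contained 19 of the sites, 10 of them on the same strand. The 3 sites of Snord64, a small nucleolar RNA of an imprinted cluster, all lay inside its host transcript Snhg14 on the same strand. The Zfyve9 site lay inside its own gene interval, at -728 bases from the gene end, and also inside Cc2d1b on the opposite strand.

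The class p share of a gene's reads varied widely. For 139 symbols, with 158 sites, no site of another class was in the table. In the other 334 symbols the class p share of reads had a median of 15.9% (interquartile range 4.88 to 45.3%), and it exceeded 50% in 77 symbols and was under 1% in 22. Among the 171 of these symbols with at least 200 reads the median share was 5.17%. An example of a low share was Car3, a muscle carbonic anhydrase, whose site 45 bases past the gene end had 0.188% of the gene's 110188 reads. Among symbols with another site, Oser1, an oxidative stress responsive gene, had 94.1% of its reads at its class p site (275 and 109 KO reads, 49 and 58 WT reads), and Gm1862 had 94.9% (92 and 45 KO reads, 50 and 37 WT reads). Neither site was called. Commd6, Cbr4, Lzic, Fam217b and Wnt11 were represented by their class p site alone, so that a sum of reads per symbol for these genes is the count of that site. The sites of Commd6, Cbr4 and Wnt11 lay past the gene end. Those of Lzic and Fam217b lay inside the gene interval, at -6141 and -1671 bases from the gene end.

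None of the 12 sites with most reads belonged to a gene on the lists of muscle and energy genes described further on. Commd6, a COMM domain protein, had the most reads, with 840 and 363 in KO and 280 and 530 in WT, at chromosome 14, 101633250, 516 bases past its gene. Tmem167b, a small transmembrane protein, had 313 and 326 reads in KO and 298 and 361 in WT at the stronger of its 2 sites, both of class p. After normalization the WT libraries were both higher at this site (DESeq2 log2 fold change -0.76, SE 0.58, adjusted p = 0.914). Cbr4, a reductase of mitochondrial fatty acid synthesis, had 591 and 276 reads in KO and 157 and 259 in WT. The normalized groups of Commd6 and Cbr4 overlapped.

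Zfyve9, an adaptor of TGF-β signalling, had 803 and 266 reads in KO and 115 and 89 in WT (DESeq2 log2 fold change 1.55, SE 0.67, adjusted p = 0.305). The site held 93.4 and 78.0% of the gene's reads in KO and 78.2 and 48.9% in WT. Osgep, which modifies transfer RNA, had 607 and 292 KO reads and 169 and 115 WT reads, and Lzic had 500 and 190 against 99 and 61. Mrpl16, a protein of the mitochondrial ribosome, had 473 and 244 reads in KO and 114 and 7 in WT, so the WT animals differed widely from each other. Its log2 fold change was 1.68 with an SE of 0.95 (DESeq2, adjusted p = 0.635), and it was 5.01 without WT replicate 1, where the site was called (adjusted p = 0.000118). At all 4 of these sites both KO libraries were above both WT libraries and none passed the test on all libraries.

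Impad1, a phosphatase of the Golgi, had 192 and 214 reads in KO and 253 and 159 in WT at its main site, 9.21% of the reads of the gene. This site lay inside the gene interval, at -174 bases from the gene end. Clpx, the ATPase subunit of the mitochondrial ClpXP protease, had 264 and 180 reads in KO and 186 and 166 in WT, 17 bases past its gene. Fam217b (357 and 93 against 140 and 86) and the predicted gene Gm10698 (197 and 280 against 119 and 64) overlapped between the groups. The Gm10698 site also lay inside the gene interval, at -111 bases from the gene end. Asrgl1, an asparaginase-like enzyme, had 352 and 205 reads in KO and 54 and 37 in WT (DESeq2 log2 fold change 1.82, SE 0.68, adjusted p = 0.176). Of these 12 most read sites, both KO libraries were above both WT libraries at 5 and below them at 2. Over all tested sites the shares were 23.0 and 17.4%, and no excess is read from 12 sites.

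**Figure D2:**
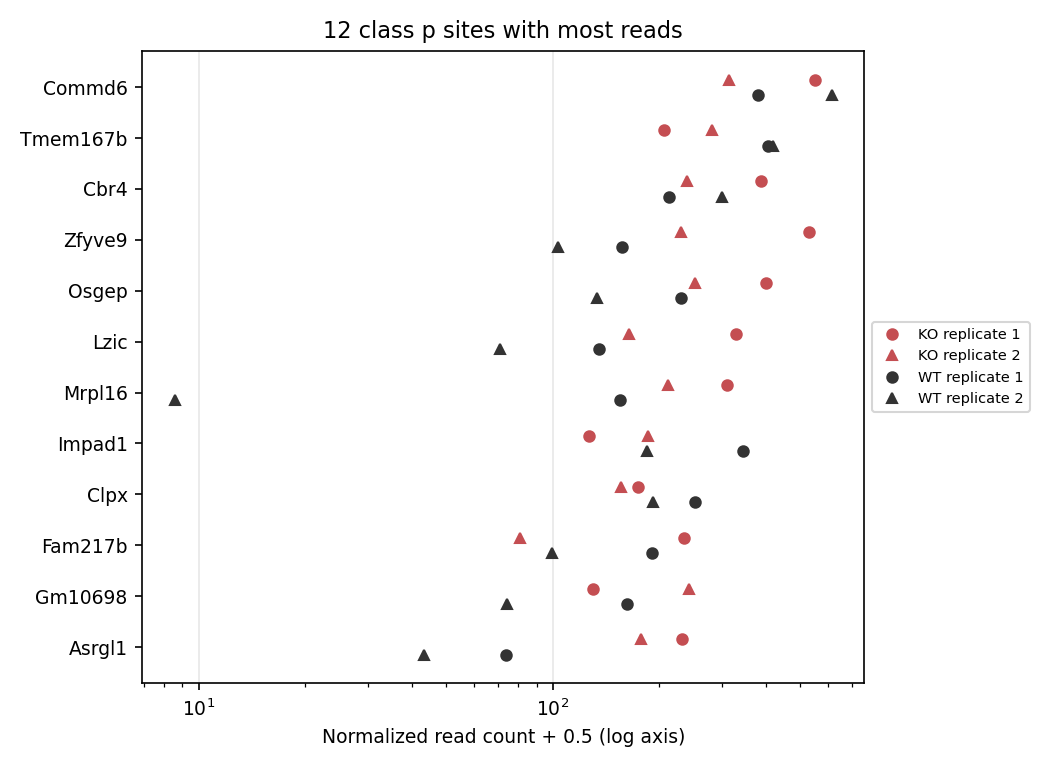
Normalized read count plus 0.5 (x axis, log scale) in each library for the 12 class p sites with most reads (y axis, most read at the top), with KO in red, WT in black, circles for replicate 1 and triangles for replicate 2. Both groups overlap at 5 of the 12 sites, and at Mrpl16 the 2 WT libraries lie far apart.

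Few class p sites differed between the genotypes. A count large enough for the DESeq2 test was found at 148 of the 620 sites, and the other 472 had no adjusted p-value. At an adjusted p under 0.1, 1 site was up-regulated and 1 was down-regulated in KO, which is 1.35% of those tested. Over all 11112 tested sites 3.21% were called, 2.33% upward and 0.882% downward. In the same fit the share called was 6.19% for intergenic sites (code u), 4.36% for intronic sites (i), 2.40% for sites contained in a transcript (c) and 0.690% for exonic overlaps (o). With 2 calls, no difference between the classes can be read for code p. At an unadjusted p under 0.05 there were 12 of the 148 class p sites, against 1070 of 11112 over all sites. The quasi-likelihood test of edgeR called none of 152 class p sites, against 0.712% of all sites it tested. An unadjusted p under 0.05 with edgeR was found at 20 of the 152, against 1162 of 11242 over all sites. No excess in class p is read from these counts.

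**Figure D3:**
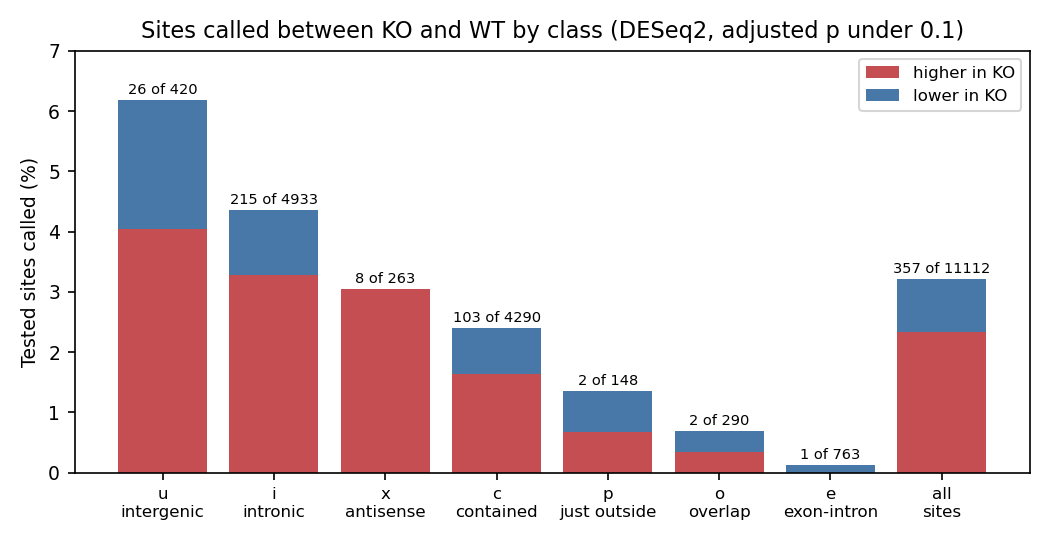
Percent of tested sites called by DESeq2 at an adjusted p under 0.1 (y axis) for each class code and for all sites (x axis), with calls higher in KO in red and lower in KO in blue. The number above a bar gives calls of sites tested, and class p, with 2 of 148, lies below the 3.21% of all sites.

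Normalized counts of KO were above those of WT without overlap at 42 of the 148 tested sites (28.4%, against 23.0% of all tested sites), and WT was above KO at 34 (23.0%, against 17.4%). Over the 620 sites the median log2 ratio of KO to WT, with 0.5 added to normalized counts, was 0.31, and 350 sites (56.5%) were higher in KO. The same values over all sites were 0.30 and 58.1%. Class p reads made up 0.529 and 0.424% of the KO libraries and 0.456 and 0.412% of the WT libraries. The means were 0.477% ± 0.0741 in KO and 0.434% ± 0.0310 in WT (SD, n = 2 each), and the groups overlapped (exact permutation test, two-sided, p = 0.667, where the smallest p that 2 against 2 allows is 0.33).

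The site called up-regulated was assigned to Mob1b, an activator of kinases in the Hippo pathway. It was 2 bases wide, at chromosome 5, 88758639, on the plus strand and 184 bases past the gene end. It had 94 and 34 reads in KO and 0 and 5 in WT (DESeq2 log2 fold change 3.93, SE 1.33, adjusted p = 0.0975; edgeR adjusted p = 0.226). Both KO libraries were well above both WT libraries, and the adjusted p was just inside the threshold. The call was lost when any of the 4 libraries was left out, with log2 fold changes of 2.98 to 7.45. The site took 50.3 and 23.8% of the Mob1b reads in KO and 0 and 5.75% in WT. The test of its use within the gene, which compares a site with the other sites of its symbol, gave an edgeR adjusted p of 0.469. The other 2 class p sites of Mob1b did not share this direction. The one at 88759173 had 27 and 37 reads in KO and 28 and 38 in WT. The one at 88759085 had 3 and 6 against 4 and 20. Both had higher normalized counts in WT, without overlap. Summed over the 3 sites the log2 fold change was 0.21 with an SE of 0.66 (DESeq2, adjusted p = 0.992).

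The site called down-regulated was the main site of Mir3098, at chromosome 6, 125197857, on the plus strand. It had 67 and 18 reads in KO and 329 and 50 in WT (DESeq2 log2 fold change -3.08, SE 0.91, adjusted p = 0.0398; edgeR adjusted p = 0.236). Most of the reads came from WT replicate 1, and without that library the log2 fold change was -0.95 and the site was not called (DESeq2 adjusted p = 0.998). The call was also lost without KO replicate 1 (-4.00, adjusted p = 0.129) and without KO replicate 2 (-2.53, adjusted p = 1.00). After normalization both WT libraries were above both KO libraries. The weaker Mir3098 site, 531 bases past the hairpin, had 11 reads in all. The Mir742 site had 25 and 20 reads in KO and 15 and 23 in WT.

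The other 10 sites with an unadjusted p under 0.05 did not pass the adjusted threshold, and 9 of them were higher in KO. Filip1, which binds filamin and is expressed in muscle, had 78 and 26 reads in KO and 3 and 0 in WT, 416 bases past the gene end (DESeq2 log2 fold change 4.23, SE 1.48, adjusted p = 0.114). Its WT libraries were at or under the floor of 3 reads, and without WT replicate 1 the site was called (log2 fold change 7.44, adjusted p = 0.0913). Cltb, a clathrin light chain, had 372 and 164 reads in KO and 38 and 39 in WT (DESeq2 log2 fold change 2.00, SE 0.70, adjusted p = 0.114). The WT libraries agreed closely at this site and each was far below both KO libraries. The Cltb site lay inside the gene interval, at -298 bases from the gene end. Tcea3, a transcription elongation factor, had 48 and 48 reads in KO and 2 and 4 in WT. Its site took 77.4 and 76.2% of the gene's reads in KO and 18.2 and 20% in WT (DESeq2 adjusted p = 0.177; adjusted p of its use 0.741). Mettl21e, a lysine methyltransferase of muscle, had 28 and 35 reads in KO and 1 and 3 in WT (DESeq2 adjusted p = 0.362).

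C7, a complement protein, had 48 and 98 reads in KO and 10 and 5 in WT, at -764 bases from the gene end and so inside the gene interval (DESeq2 adjusted p = 0.240). Snord64 had 135 and 62 reads in KO and 10 and 21 in WT at its main site, 1197 bases past the gene (DESeq2 adjusted p = 0.413). The RIKEN transcript A830082N09Rik had 33 and 39 reads in KO and 1 and 5 in WT. In the opposite direction, Gm14305 had 5 and 1 reads in KO and 19 and 10 in WT (DESeq2 adjusted p = 0.511). All 12 sites also had an unadjusted p under 0.05 with edgeR.

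**Figure D4:**
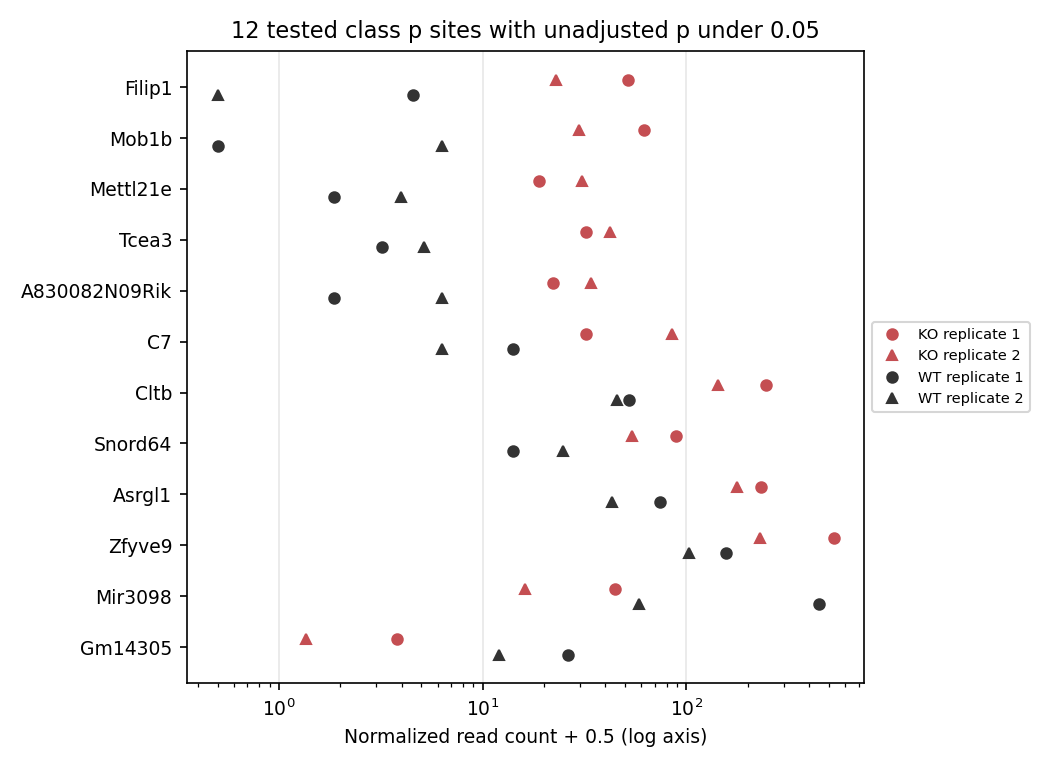
Normalized read count plus 0.5 (x axis, log scale) in each library for the 12 tested class p sites with an unadjusted p under 0.05 (y axis, ordered by fold change), with KO in red, WT in black, circles for replicate 1 and triangles for replicate 2. The groups are apart at all 12 sites, which were chosen by this p, and the WT replicates of Mir3098 and the replicates of Filip1 lie far apart.

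Muscle and energy genes were set out by lists. Over all lists 45 class p sites of 30 genes were found, 13 were tested and none was called, against the 3.21% called over all sites. The sarcomere list had 19 sites of 10 genes, of the 72 genes that the table held, and 7 sites were tested. Its median log2 ratio was 0.14, beside 0.30 over all sites, and 10 of the 19 sites were higher in KO. The site with most reads was that of Murc, a caveolar protein of muscle, with 71 and 16 reads in KO and 32 and 33 in WT. Mybpc1, the slow form of myosin-binding protein C, had 37 and 14 reads in KO and 1 and 3 in WT. Xirp2, an actin-binding protein, had 40 and 10 against 1 and 2, and Myh4, the fast IIb myosin heavy chain, had 32 and 17 against 4 and 0. Both KO libraries were above both WT libraries at these 3 sites, which were 2.39, 0.316 and 0.0604% of the reads of their genes. None passed the test (DESeq2 adjusted p = 0.623, 0.565 and 0.745). The 3 sites were named after their values were seen, and Xirp2 and Myh4 each had 2 class p sites, of which 1 is given. Over the 13 tested list sites KO was above WT at 6 and WT above KO at 1. The shares over all tested sites were 23.0 and 17.4%, and no excess is read from 13 sites.

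The glucose and phosphagen list had 13 sites of 8 genes with a median log2 ratio of 0.63, and 3 sites were tested. Car3 had 89 and 58 reads in KO and 30 and 30 in WT (DESeq2 log2 fold change 0.53, SE 0.84, adjusted p = 1.00). Prkab2, which encodes the β2 regulatory subunit of AMPK, had 59 and 21 reads in KO and 30 and 38 in WT, with WT higher after normalization (DESeq2 log2 fold change -0.57, SE 0.94, adjusted p = 1.00). The targeted gene itself had 1 class p site, 1429 bases past the end of Prkaa2 at chromosome 4, 105028220. It had 13 and 19 reads in KO and 2 and 1 in WT, too few to be tested. The ratio of pooled reads, scaled by the size factors, was 6.37 (exact 95% interval 1.99 to 32.5, which covers counting error only). The AMPK subunit gene Prkag1 had 10 reads, all in KO replicate 1.

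The list of fat and mitochondrial genes had 6 sites of 5 genes with a median log2 ratio of 1.13. The highest was Idh2, the mitochondrial isocitrate dehydrogenase, with 10 and 31 reads in KO and 5 and 5 in WT. The list of muscle transcription and growth had 2 sites. The one of Wnt11, a secreted signalling protein, was its gene's only site and had 133 and 6 reads in KO and 10 and 3 in WT, so a single KO library held most of the reads. Its log2 fold change was 2.46 with all libraries and -0.69 without KO replicate 1, and it was not called. Calcium and excitation genes had 2 sites, both with at most 11 reads. The translation list had 1, of Eef1g, with 55 and 4 reads in KO and 8 and 0 in WT. Among the lists of other cell types there was 1 adipocyte site, of the lipid droplet protein Plin1, with 17 and 10 KO reads and 10 and 1 WT reads. There was 1 fibroblast site, of the matrix proteoglycan Dcn, with 5 and 1 KO reads and 8 and 0 WT reads.

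Several genes had a series of class p sites, and 99 symbols with more than 1 held 246 of the 620. The transcript F830016B08Rik had 7, within 1128 bases. The genes with 5 were Ckm, Smpx, Mir1a-1hg, Eif1ax, Fsd2 and 5031439G07Rik. Ckm, the muscle creatine kinase, had its 5 sites between 558 and 1133 bases past the gene end, with 56 and 26 reads in KO and 14 and 34 in WT together. They were 1.94% of the reads of the gene. Smpx, a small protein of muscle, had 5 sites from 103 to 404 bases past the end, with 25 and 31 reads in KO and 17 and 32 in WT (14.7% of the gene's reads). Mir1a-1hg, the host transcript of the muscle microRNA miR-1a, had 5 sites from 1183 to 1901 bases past the end, with 48 and 40 reads in KO and 12 and 31 in WT (24.4%). Eif1ax, a translation initiation factor, differed in that all 5 of its sites lay inside the RefSeq interval, at -3836 to -2690 bases from the gene end, and they held 66.5% of its reads. None of the sites of these 7 symbols was called. Sites of one gene share their source and were not counted as replicates.

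To separate a change at a class p site from a change of its gene, the use of each site within its gene was tested. Of 96 class p sites tested, edgeR called none at an adjusted p under 0.1, against 0.757% over all sites of this fit. At an unadjusted p under 0.05 there were 10 of the 96 sites, and this count is not given here over all sites of the fit. The smallest adjusted p was 0.176, at Filip1. That site held 15.2 and 6.27% of the Filip1 reads in KO and 1.85 and 0% in WT.

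Class p reads and all other reads of a symbol were also summed into separate rows and tested. Of 91 tested class p sums, 1 was higher and 1 was lower in KO, against 1.72 and 0.946%, in all 2.67%, over all sums. The lower one was Mir3098 (log2 fold change -3.06, DESeq2 adjusted p = 0.00989), which was not called without WT replicate 1. The higher one was Cltb (DESeq2 log2 fold change 1.87, SE 0.57, adjusted p = 0.0555). Its site lay inside the gene interval, at -298 bases from the gene end, and held 91.4 and 86.8% of the gene's reads in KO and 84.4 and 83.0% in WT. The other reads of Cltb were 35 and 25 in KO and 7 and 8 in WT (log2 fold change 1.13, SE 1.11, no adjusted p). The Cltb sum is the same single site as above, which passed here and not at site level. It was the only class p sum called higher, and no class p sum was called higher without KO replicate 1, KO replicate 2 or WT replicate 2. Neither sum was called by edgeR (adjusted p = 0.165 and 0.179).

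For the other sites of the same genes, 213 sums were tested, 4 were higher in KO and none was lower. They were those of C7, Rest, Gm28783 and Abca8a. C7 reads outside class p were 654 and 210 in KO and 51 and 34 in WT (DESeq2 log2 fold change 2.36, SE 0.58, adjusted p = 0.00661), and its class p site moved by a like amount (2.51, SE 0.95, adjusted p = 0.191). The summed fibroblast markers, given above, were lower in KO, and whether this bears on C7 was not tested. Rest, a repressor of neuronal genes, had 310 and 590 other reads in KO and 46 and 69 in WT (log2 fold change 2.23, DESeq2 adjusted p = 0.0114). The class p reads of Rest did not share this, with 143 and 38 in KO and 59 and 50 in WT at the main site. That site lay inside the gene interval, at -2654 bases from the gene end. For the class p sum the log2 fold change was -0.28 with an SE of 0.70 (DESeq2, adjusted p = 0.989). The difference between these changes was tested only as the use of the main site (edgeR adjusted p = 0.749). In edgeR the 4 sums had adjusted p from 0.111 to 0.217 and none was called.

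In 46 symbols both sums were tested. The median log2 fold change was 0.12 for class p sums and 0.02 for the other sums, the class p value was the higher in 21 symbols, and both had the same sign in 27. Across these symbols Pearson's r was 0.18 and Spearman's rho was 0.14. The 46 points share the same 4 libraries and are not independent replicates, so this is a description.

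**Figure D5:**
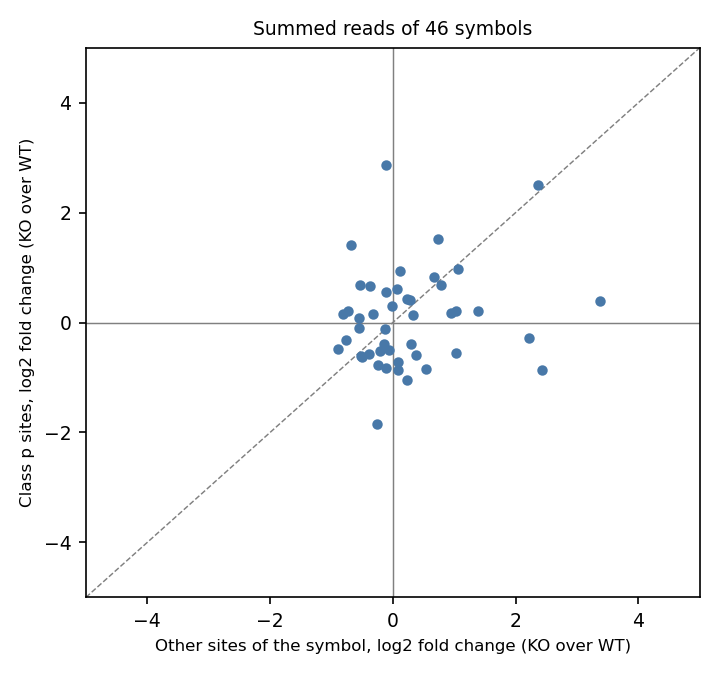
Log2 fold change of KO over WT for summed class p reads (y axis) against that of all other reads of the same symbol (x axis), 1 point for each of the 46 symbols with both sums tested, with the dashed line marking equal change. The points scatter around 0 on both axes, with C7 near the line at 2.36 and 2.51 and Filip1 high on the y axis alone. Farthest right is Mau2 (3.38 on the x axis, 0.40 on the y axis), then Sclt1 (2.43 and -0.86), and Rest lies at 2.23 on the x axis.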

How the data were processed

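The authors deposited 1 table of raw read counts per clustered start site, with 1 column per library and per-site class codes assigned with Cuffcompare. Reads had been mapped to GRCm38.p5 per the labels. Mapping and clustering settings were described for the 3′-end libraries of the study and not stated for the 5′ ends. No molecular identifiers were described, so PCR copies count as reads, and floors and intervals cover counting error only. The line of column totals was left out.

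All 42207 sites entered the main DESeq2 fit of site levels. The edgeR fits kept only sites with enough reads, and the test of use only symbols with at least 2 such sites. The sums left out sites without a symbol. In each fit p-values were adjusted over all rows tested. Site levels and sums per symbol were compared with the Wald test of DESeq2 1.42.0 (R 4.3.3) with median-of-ratios size factors and independent filtering. At site level this filtering set a lower limit of 8.76 on the mean normalized count. The threshold was an adjusted p under 0.1 as in the study. Use of sites within a symbol was tested with diffSpliceDGE of edgeR 4.0.16. The edgeR quasi-likelihood test was the alternative tool. The DESeq2 and edgeR site tests and the test of use were run on simulated counts, and the other steps were not. A log2 fold change is KO over WT. Of the 4 libraries, a count of 3 reads was the floor, 1.03 to 2.31 ppm of a library. Replicates differed by more than sampling noise (chi-square per degree of freedom over all sites 10.5 in KO and 6.46 in WT). The animals are separate per the study, and no batch was given by the labels.

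Gene positions, promoter windows and microRNA sequences were from RefSeq tables of GRCm38.p6, which has the primary chromosome coordinates of the deposited build. Coordinates count from 1. The gene table gives no strand, which was taken from the promoter and hairpin tables. No genome sequence was used here.

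Sites named were those called by DESeq2, the 12 with most reads, list members with at least 100 reads, the 6 with the largest share of a symbol of at least 200 reads and 2 or more sites, small RNA genes with at least 50 reads, the symbols with most sites (at least 5), and sites in a promoter window. Sites with an unadjusted p under 0.05, weaker list members, the called sums and the sites inside another gene were named after their values were seen. The sites and lists were chosen with earlier results of these data known. Alternatives were other scalings, filters and thresholds, a replicate block, and leaving out each library.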

Additional observations from a re-analysis of the deposited data

How the results depend on the processing

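With 2 animals a group, calls among class p sites changed with the setting. The higher call fell to 0 with edgeR, TMM factors, library totals (chosen after seeing the data), independent filtering off, a total of at least 20 reads, primary chromosomes only and a threshold of 0.05. The lower call, Mir3098, fell to 0 with edgeR and with independent filtering off, where more sites enter the adjustment. With edgeR and the replicate block (chosen after seeing the data) both were 0. In the DESeq2 fit with the replicate block there were 1 higher and 1 lower call, but the higher one was Mrpl16 (log2 fold change 2.72, adjusted p = 0.0901) and Mob1b was not called (4.39, adjusted p = 0.179). The block called 0 sites for use, 1 class p sum each way and 4 other sums. Same-numbered libraries did not deviate together (correlation 0.0703 over 10728 sites), so the numbers give no ground for pairing.

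Leaving out 1 library gave 0 to 2 higher and 0 to 1 lower site calls (2 without WT replicate 1, Mrpl16 and Filip1), 0 calls of use, 0 to 1 class p sums each way, 1 to 3 other sums higher and 0 to 1 lower. A fit with 1 library in a group assumes that it varies like the other group. Class p sums were 0 each way and other sums 0 with edgeR, and the higher class p sum was 0 at a threshold of 0.05. The difference in the class p share of a library ran from -0.00946 to 0.0953 percentage points. Among the 24 tested sites named by the rule, 277 of 288 values under alternatives kept their direction. The 11 that turned were uncalled. Leaving out 1 library moved the log2 fold change of Commd6 from -0.62 to 0.13, Cbr4 from -0.067 to 0.58, Fam217b from -0.82 to 0.68, Gm1862 from -0.51 to 0.22, Ubtd1 from -0.35 to 1.00, Murc from -1.53 to 0.17 and Wnt11 from -0.69 to 3.74. Fam217b was -0.064 with edgeR and the replicate block. The causes were not tested. The share of sites past the gene end was 77.4% among sites with at least 50 reads. Scaling by library totals moved the size factors of WT against KO by -0.12 on the log2 scale. Most class p sites, 472 of 620, were too shallow to be tested.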

Other observations

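A few class p sites lay off the primary chromosomes. The 3 mitochondrial sites were all assigned to the threonine transfer RNA TrnT, with 16 and 4 reads in KO and 6 and 7 in WT at the strongest, 533 bases past it. The 2 sites on unplaced scaffolds were those of Mettl17 and Tmlhe, with 10 reads each. At the long noncoding RNA Linc-md1, the single class p site had 16 reads, all in KO replicate 1. The 2 class p sites of Filip1 lay 416 and 118 bases past the gene end, and the second, with 22 and 29 reads in KO and 7 and 1 in WT, was also higher in both KO libraries (DESeq2 adjusted p = 0.921). The 2 class p sites of St13 had log2 fold changes of opposite sign, with 2 and 10 reads in KO and 10 and 24 in WT at the first and 19 and 8 against 5 and 0 at the second, and neither was called.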
